A study of Mus musculus with 4 samples.

Results

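Leukocyte integrin chains and their ligand ICAM-1 are described here across the macrophage libraries, as 10 of the 21878 genes in the deposited count table. They were chosen by symbol as chains of the β1, β2 and αv integrin families together with Icam1. The list holds the 6 α chains Itgam, Itgal, Itgax, Itga4, Itga5 and Itgav, the 3 β chains Itgb1, Itgb2 and Itgb5, and Icam1. All 10 were counted in every library and entered the test. The samples were bone marrow-derived macrophages (BMDMs) from C57BL/6 mice aged 8 weeks, cocultured for 48 h by the labels with MC38, a mouse colon cancer cell line. A shorter coculture and a range of ages that begins at the labelled one are given in the study's own text, and the labels were followed here. There were 2 libraries labelled WT, from wildtype mice, and 2 labelled anti-Act1, from mice made for a macrophage-specific knockdown of Act1. By the study's methods the marrow cells were grown into macrophages with M-CSF and kept apart from the cancer cells by transwell inserts, and both groups had this coculture, so no library shows macrophages without cancer cells. The comparison was set up to ask how the macrophage transcriptome differs when Act1, an adaptor protein of inflammatory receptor signalling encoded by Traf3ip2, is lowered. As given below, the Traf3ip2 transcript was not lower in the anti-Act1 libraries, and sex and genotype cannot be told apart.

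Integrins are adhesion receptors made of an α and a β chain, and neither chain reaches the cell surface alone. On leukocytes the β2 chain pairs with αL (CD11a, the receptor LFA-1), αM (CD11b, the receptor Mac-1), αX (CD11c) or αD, whereas β1 pairs with α4 to bind VCAM-1 and fibronectin and with α5 to bind fibronectin, and αv pairs with β5 or β3 to bind vitronectin and other proteins with an RGD motif. ICAM-1 is an inducible surface protein of endothelium, leukocytes and many other cells that is bound by αLβ2 and αMβ2, and signals through NF-κB and interferon-γ are known to raise its transcription.

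The library totals ran from 55435063 to 75062945 counts, and 3 counts, taken as the floor of detection, were worth between 0.0395 and 0.0549 CPM, the counts scaled to library size. The Traf3ip2 transcript was not lower where the labels give the knockdown, with 6.98 and 7.54 CPM in WT, 9.63 and 7.84 CPM in anti-Act1 and a fitted log2 difference of 0.27 (SE 0.12, adjusted p = 0.117, edgeR). This difference depended on single libraries, at 0.41 without anti-Act1 replicate 2 and 0.11 without its replicate 1. The study itself reports a marked reduction of Act1 expression in BMDMs of anti-Act1 mice, which these counts do not show. The groups are therefore named by their labels throughout. The Y-linked gene Ddx3y averaged 92.9 CPM in the WT libraries and had 0 counts in both anti-Act1 libraries, so the sex of the mice and the genotype cannot be told apart. Macrophage markers were abundant in every library, with Csf1r, the M-CSF receptor, at 2251 to 2442 CPM and Adgre1, a surface marker of mouse macrophages, at 799.5 to 891 CPM. Among these markers Cd14 was higher in the anti-Act1 libraries and Mertk was lower, while Adgre1, Csf1r and Cd68 did not pass the test. Summed over 8 epithelial markers, by which the cancer cells would show, the level was 0.128 to 0.464 CPM, with 4 of the 8 at 0 in every library, and 8 neutrophil markers, a cell type rich in Itgam and Itgb2, summed to 6.58 to 7.47 CPM, with 1 higher and 3 lower of the 6 tested. The marker lists of fibroblasts, T and NK cells, dendritic cells and mast cells each summed to at most 5.31 CPM. That of B cells summed to 38.0 to 43.6 CPM. Of these lists 1 T and NK cell, 3 B cell and 5 dendritic cell genes were tested, and none was called. No fibroblast or mast cell gene was tested, so those lists could give no call. The mast cell sum was 0.325 and 0.329 CPM in WT and 0.0486 and 0.0916 CPM in anti-Act1. That of T and NK cells was 0.898 and 0.922 CPM in WT and 1.214 and 1.135 CPM in anti-Act1. Of this sum Lck, the 1 tested gene of the list, held 0.433 and 0.593 CPM in WT. In anti-Act1 Lck held 1.02 and 0.696 CPM, and it was not called (adjusted p = 0.188, edgeR). The difference between the T and NK cell sums thus rested on Lck. In bulk RNA, fewer cells of a type and less RNA per cell cannot be told apart.

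Promoter sequence was available for 8 of the 10 genes in RefSeq windows of mouse build GRCm38.p6 that run from 250 bases before to 50 bases after the annotated start, and Itgal and Itgb2 had none. The 250 bases before the start are shown for Icam1, the ligand and the gene with the largest rise of the list, and for Itgam, its most abundant α chain. The Icam1 stretch lies at chr9:21015690-21015939 and the Itgam stretch at chr7:128062390-128062639, both on the + strand and written 5′ to 3′. Capitals mark NF-κB-like and GAS matches in Icam1 and the PU.1-like match in Itgam.
Icam1: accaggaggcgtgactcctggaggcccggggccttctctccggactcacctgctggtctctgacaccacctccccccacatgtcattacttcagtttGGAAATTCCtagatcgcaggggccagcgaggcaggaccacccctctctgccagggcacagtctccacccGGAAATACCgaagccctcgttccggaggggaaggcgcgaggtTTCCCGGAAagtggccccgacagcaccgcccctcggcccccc
Itgam: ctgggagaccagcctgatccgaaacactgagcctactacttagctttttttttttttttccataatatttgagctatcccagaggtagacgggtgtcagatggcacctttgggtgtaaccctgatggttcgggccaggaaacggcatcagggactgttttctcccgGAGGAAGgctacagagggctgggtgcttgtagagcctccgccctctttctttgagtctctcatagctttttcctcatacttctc

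Both strands of each 300-base window were searched for NF-κB-like GGNNTTTCC, GAS TTCNNNGAA, PU.1-like GAGGAAG, GC box GGGCGG and AP-1 TGANTCA, where N is any base. The Icam1 window held 2 NF-κB-like matches, GGAAATTCC beginning 153 bases before the start and GGAAATACC beginning 84 bases before it, and a GAS match, TTCCCGGAA, beginning 42 bases before it. Of all 32851 promoter windows, 5.82% held an NF-κB-like match and 8.3% a GAS match. Among the integrin chains only Itgb1 held an NF-κB-like match, GGGCTTTCC beginning 164 bases before its start, and none of the 7 with a window held a GAS match. The Itgam window held 2 PU.1-like matches, one of them beginning 84 bases before the start, and Itgav held 1, against 13.6% of all windows with at least 1. Itgax, coding for CD11c, held the only AP-1 match, TGAGTCA beginning 56 bases before its start, against 7.81% of all windows. GC boxes were found in every available window but that of Itgax, with 1 to 3 each, and 35.7% of all windows held one. These are matches of letters, and binding was not measured.

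Read per length as FPKM (fragments per kilobase of transcript, scaled by library total), the transcripts of the CD11b/CD18 pair were the most abundant of the list. In the WT libraries the mean FPKM ran from Itgam at 324 and Itgb2 at 310 through Itgb1 at 175 and Itgb5 at 82.8 to Itgal at 31.3, Itga5 at 28.2, Icam1 at 22.5, Itgav at 14.9, Itga4 at 10.6 and Itgax at 8.24. In the anti-Act1 libraries Itgb2 led at 321 FPKM with Itgam second at 257, and Itgal, at 22.8, stood below Itga5 at 31.7 and Icam1 at 29.4. The 2 libraries of each group did not overlap between neighbours of either order, although the gap in WT between Itgam (314 and 334 FPKM) and Itgb2 (307 and 312 FPKM) was small, and levels of different genes were not tested against each other.

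**Figure D1:**
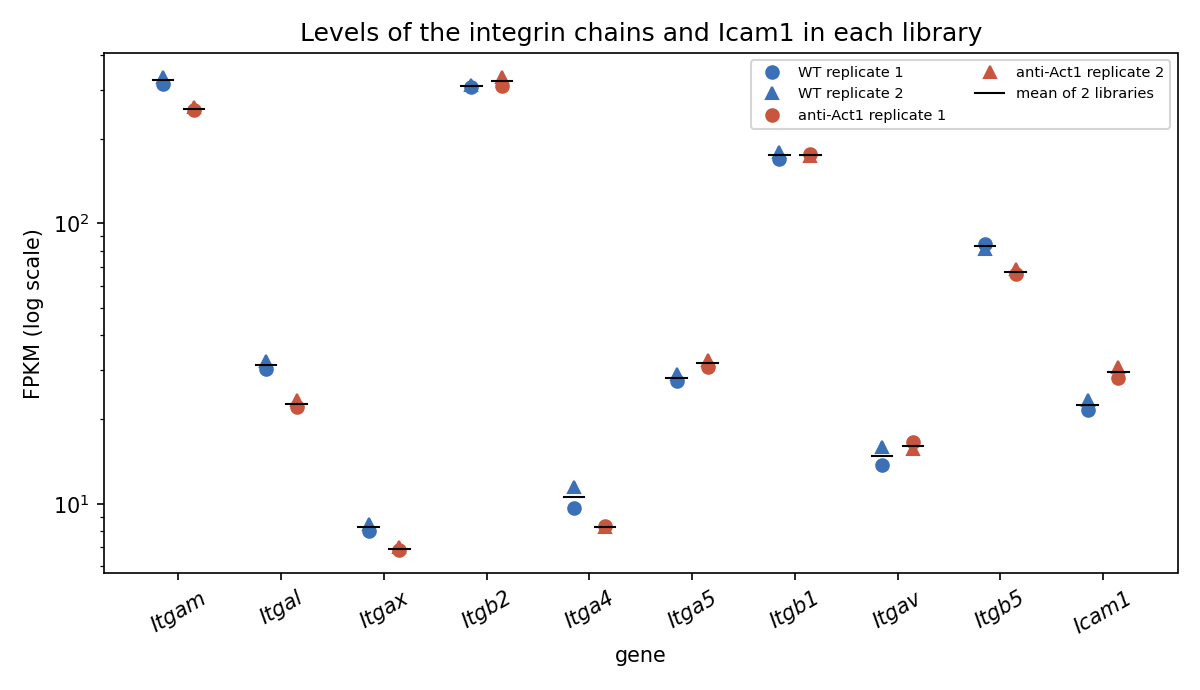
FPKM (log axis) of the 10 genes in each of the 4 libraries, with WT in blue, anti-Act1 in red, circles for replicate 1, triangles for replicate 2 and a line at the mean of 2 libraries. Itgam and Itgb2 stand at the top, and their order differs between the groups, with WT means of 324 and 310 and anti-Act1 means of 257 and 321.

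Against WT, 5 of the 10 genes were lower in the anti-Act1 libraries (Itgal, Itga4, Itgam, Itgb5 and Itgax), 2 were higher (Icam1 and Itga5) and 3 did not pass the test (Itgav, Itgb2 and Itgb1), at an adjusted p under 0.05 in edgeR's quasi-likelihood test over 12494 genes. The share called, 70% of the list, stands beside 20.7% of all genes tested. All 10 genes had group means of at least 28.1 CPM, and the share among tested genes of like level was not computed. By direction, 9.76% of all genes tested were called lower and 10.9% higher. The number of genes called over the whole table was 2586, against 1712 when anti-Act1 replicate 1 was left out and 1671 when replicate 2 was. DESeq2 called 6 of the 10, beside 16.2% of the genes it tested. The called differences were modest. They ranged from Itgax, which fell by 14.4% of its WT mean CPM, to Icam1, which was 33.0% higher, and the median log2 fold change was -0.10 over the 10 genes and -0.0046 over all genes tested. In 9 of the 10 genes the CPM of the groups did not overlap, which was so for 57.1% of all genes tested (28.4% with anti-Act1 higher and 28.7% with anti-Act1 lower), and Itgb1 was the exception. Each group had 2 libraries, which the study's methods describe as biological replicates. The p-values rest on the spread between these libraries alone, with the variance of each gene moderated by that of the other genes tested.

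**Figure D2:**
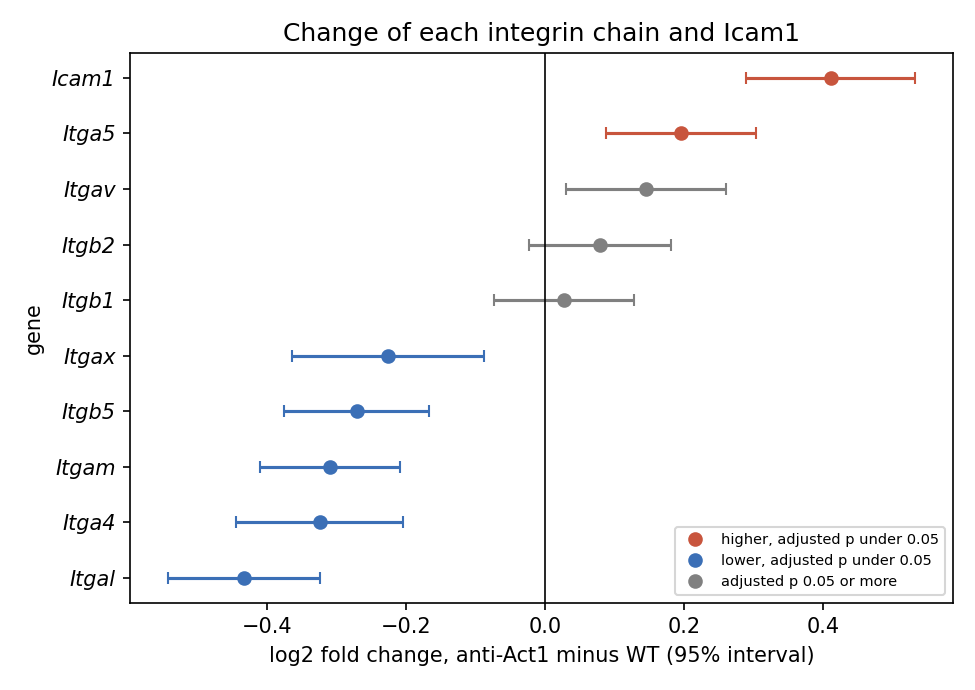
Log2 fold change, anti-Act1 minus WT, of each of the 10 genes with its 95% interval from edgeR (red higher, blue lower, grey not past the test; 2 libraries per group). Icam1 at 0.41 and Itgal at -0.43 lie at the ends, and the intervals of Itgb1 and Itgb2 span 0.

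The 3 α partners of β2 on the list fell together, while the β2 chain did not pass the test. Itgam, which encodes CD11b and with β2 forms Mac-1, the receptor for ICAM-1, fibrinogen and the complement fragment iC3b, stood at 1458 and 1545 CPM in the WT libraries and at 1188 and 1237 CPM in the anti-Act1 libraries. Both anti-Act1 values lay below both WT values. The mean of 1502 ± 61.6 CPM in WT (SD, n = 2) compared with 1212 ± 34.7 CPM in anti-Act1 (SD, n = 2). The fitted log2 fold change of Itgam was -0.31 (SE 0.05, 95% interval -0.41 to -0.21, adjusted p = 3.96e-06, edgeR). The transcript annotation shows that 66.3% of the 50-base windows of Itgam also occur in the overlapping gene model Gm49368 on the same strand, so reads could be split between them and the level of Itgam is uncertain to that extent.

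Itgal, which encodes CD11a, the α chain of the ICAM-1 receptor LFA-1, had the largest fall of the list. Its level was 141 and 151 CPM in WT and 105 and 112 CPM in anti-Act1, again without overlap. The means were 146 ± 6.79 and 108 ± 5.07 CPM (SD, n = 2 each), so Itgal fell by 25.9%, with a log2 fold change of -0.43 (SE 0.05, 95% interval -0.54 to -0.32, adjusted p = 1.52e-08, edgeR). Itgal shared none of its windows with another gene.

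Itgax, which encodes CD11c, was the least abundant of the 10 genes per length. It stood at 31.9 and 33.8 CPM in WT and at 27.7 and 28.6 CPM in anti-Act1. The groups were apart but close, and the log2 fold change was -0.23 (SE 0.07, 95% interval -0.36 to -0.09, adjusted p = 0.0136, edgeR). This call depended on single libraries, since the adjusted p was 0.127 without WT replicate 2, 0.154 without anti-Act1 replicate 1 and 0.0572 without its replicate 2, and DESeq2 gave 0.0508. Of the Itgax windows, 8.02% also occur in Itgad, its neighbour on chromosome 7.

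Itgb2 encodes CD18, the β chain that all of these α chains need. It stood at 866 and 876 CPM in WT and at 883 and 958 CPM in anti-Act1. The groups did not overlap, but the nearest libraries differed by less than the anti-Act1 libraries did from each other. The log2 fold change was 0.08 (SE 0.05, adjusted p = 0.304, edgeR), and its 95% interval, -0.02 to 0.18, lay above those of the 3 α partners.

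Within a library, the summed FPKM of Itgal, Itgam and Itgax divided by that of Itgb2 was 1.14 and 1.20 in WT and 0.909 and 0.874 in anti-Act1. The ratio was thus lower in both anti-Act1 libraries than in both WT libraries, with means of 1.17 ± 0.0391 in WT and 0.891 ± 0.0248 in anti-Act1 (SD, n = 2). This ratio does not depend on how libraries are scaled to each other. It does depend on the level of Itgam, of whose windows 66.3% are shared with Gm49368. Whether the ratio lies above or below 1, like the order of Itgam and Itgb2 in FPKM, is therefore uncertain. The ratio was chosen after the values of its genes were seen and has no test. Among the 3 α chains the shares moved little, with Itgam holding 89.1% in both WT libraries and 89.7% and 89.5% in the anti-Act1 libraries. Itgal held 8.59% and 8.65% in WT and 7.86% and 8.05% in anti-Act1, and Itgax held 2.27% in both WT libraries and 2.43% and 2.41% in anti-Act1. For each share the exact two-sided permutation p was 0.333, the smallest that 2 libraries against 2 allow.

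**Figure D3:**
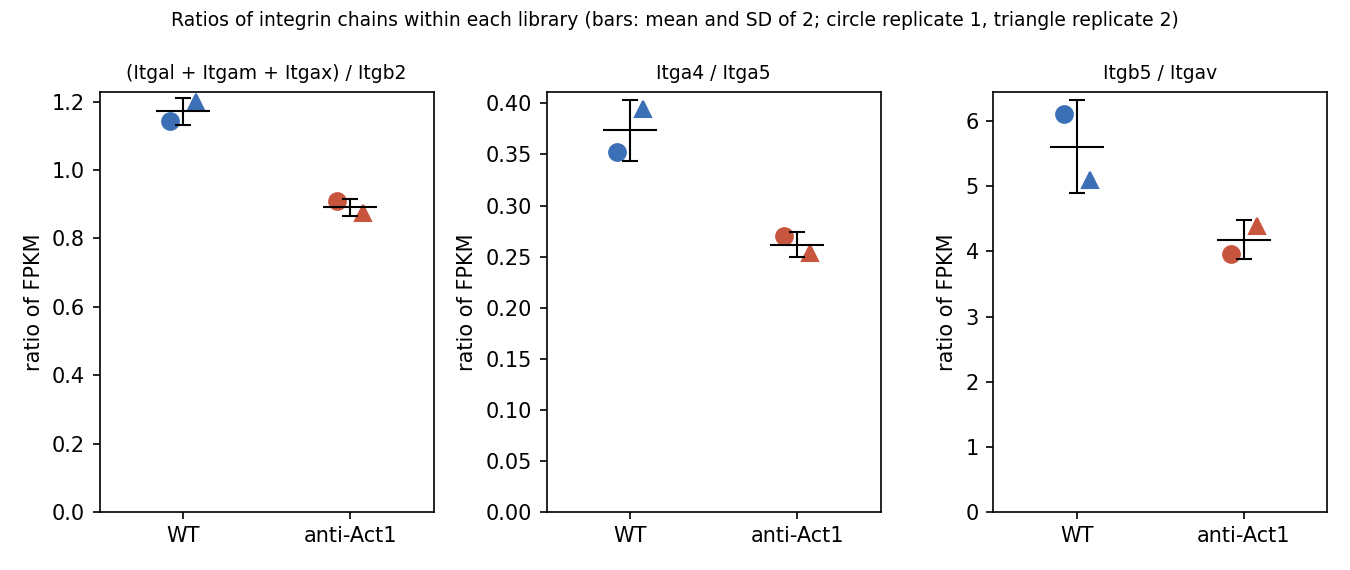
Ratios of FPKM within each of the 4 libraries (circle replicate 1, triangle replicate 2, bars the mean and SD of 2; axes start at 0) for the β2 partners over Itgb2, Itga4 over Itga5 and Itgb5 over Itgav. In each panel both anti-Act1 libraries sit below both WT libraries, with means of 0.891 against 1.17, 0.262 against 0.374 and 4.18 against 5.61. The ratios were chosen after the values were seen and were not tested.

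The partners of β1 moved in opposite directions. Itga4, the α chain of the VCAM-1 receptor α4β1 and, with β7, of a gut-homing receptor, stood at 94.6 and 111 CPM in WT and at 82.2 and 82.4 CPM in anti-Act1. The anti-Act1 libraries were nearly equal and lower than both WT libraries, whose own difference exceeded the gap between the groups. The log2 fold change was -0.32 (SE 0.06, 95% interval -0.44 to -0.20, adjusted p = 3.72e-05, edgeR), and -0.20 without WT replicate 2, still past the test (adjusted p = 0.0124). On the opposite strand, 7.51% of the Itga4 windows occur in other genes, mostly Cerkl, and whether strand was used in the counting is not given in the sources used here.

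Itga5, the α chain of the fibronectin receptor α5β1, rose. Its level was 121 and 127 CPM in WT and 137 and 147 CPM in anti-Act1, without overlap. The means of 124 ± 4.38 and 142 ± 6.78 CPM (SD, n = 2 each) gave a log2 fold change of 0.19 (SE 0.05, 95% interval 0.09 to 0.30, adjusted p = 0.0057, edgeR). The call was lost without anti-Act1 replicate 2, where the adjusted p was 0.205.

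Itgb1, the β chain shared by both, was the one gene of the 10 whose groups overlapped, at 710 and 745 CPM in WT and 742 and 740 CPM in anti-Act1. The fitted log2 difference was 0.03 (SE 0.05, adjusted p = 0.769, edgeR). Its 95% interval of -0.07 to 0.13 lay above that of Itga4 but overlapped that of Itga5, 0.09 to 0.30. Differences between these genes were not tested. The ratio of Itga4 to Itga5 in FPKM was 0.353 and 0.395 in the WT libraries and 0.270 and 0.253 in the anti-Act1 libraries, a ratio likewise chosen after the values were seen and not tested.

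Of the αvβ5 pair, a vitronectin receptor that also takes part in the uptake of apoptotic cells, the β chain fell. Itgb5 stood at 274 and 262 CPM in WT and at 216 and 229 CPM in anti-Act1, and both anti-Act1 libraries were lower than both WT libraries. The means were 268 ± 8.47 and 222 ± 9.32 CPM (SD, n = 2 each), with a log2 fold change of -0.27 (SE 0.05, 95% interval -0.38 to -0.17, adjusted p = 6.66e-05, edgeR). Of the Itgb5 windows, 7.25% also occur in Gm38317 on the same strand.

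Itgav, which encodes αv, stood at 98.7 and 113 CPM in WT and at 120 and 115 CPM in anti-Act1, a log2 fold change of 0.15 (SE 0.06, 95% interval 0.03 to 0.26) with an adjusted p of 0.0639 in edgeR. The libraries were apart in CPM by a narrow margin and overlapped in FPKM, at 13.8 and 15.9 in WT and 16.6 and 15.7 in anti-Act1. This result rested on the WT libraries, which differed from each other by more than the groups did at their nearest. Without WT replicate 2 the log2 fold change of Itgav was 0.25 and passed the test (adjusted p = 0.00098), and without WT replicate 1 it was 0.05 (adjusted p = 0.65). The ratio of Itgb5 to Itgav in FPKM was 6.11 and 5.10 in WT and 3.97 and 4.39 in anti-Act1. It too was chosen after the values of its genes were seen and was not tested.

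Icam1, the ligand of LFA-1 and Mac-1, had the largest rise of the list. It stood at 54.5 and 58.9 CPM in the WT libraries and at 71.8 and 79.0 CPM in the anti-Act1 libraries. Both anti-Act1 values were above both WT values. The means of 56.7 ± 3.16 and 75.4 ± 5.14 CPM (SD, n = 2 each) differed by 33.0%, with a log2 fold change of 0.41 (SE 0.06, 95% interval 0.29 to 0.53, adjusted p = 5.76e-07, edgeR). The Icam1 rise and the fall of Itgal and Itgam, its receptor chains, each passed the test in all 13 alternatives that were run. The adjusted p was at most 0.0405 for Icam1, 0.0188 for Itgal and 0.029 for Itgam. The fall of Itgb5 did so as well, with an adjusted p of at most 0.027 over the alternatives. Of the Icam1 windows, 12.9% occur in other genes on the opposite strand and 2.27% on the same strand.

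The genes whose level over the 4 libraries was most like that of Icam1, by the Euclidean distance between centred log2 CPM over 8392 genes compared, were Pde2a (0.0186), Rilpl1 (0.0275) and Hk2 (0.0295), with log2 fold changes of 0.42, 0.41 and 0.39. Those most like Itgam were Vps13c (0.0121), Mmp19 (0.0155) and Fads1 (0.0289), with log2 fold changes of -0.31, -0.32 and -0.31. None of these is an integrin or an integrin ligand.

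The remaining integrin chains, counted from a list, also moved in both directions. Of 17 chains 12 were tested, of which 2 were higher (Itgb3 and Itgb7) and 3 were lower (Itgad, Itga6 and Itga9). This share of 41.7%, with a median log2 fold change of 0.09, stands beside 20.7% of all genes tested. For this list and those below, the share among tested genes of like level was not computed. Itgad, the fourth β2 partner and the next gene after Itgax on chromosome 7, was low, at 3.65 and 3.14 CPM in WT and 0.777 and 1.15 CPM in anti-Act1. Itgad fell by 1.82 on the log2 scale (SE 0.23, adjusted p = 2.16e-08, edgeR), and Itgal, Itgam and Itgax by less, although the differences between these falls were not tested. Itga6, the α chain of laminin receptors, fell by 0.34 on the log2 scale (SE 0.06, adjusted p = 8.59e-06), and Itga9, which with β1 binds tenascin-C, fell by 0.31 (SE 0.06, adjusted p = 0.000269), both in edgeR.

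Among the β chains, Itgb3, the other vitronectin partner of αv, stood at 10.6 and 11.9 CPM in WT and at 14.8 and 15.8 CPM in anti-Act1, a log2 fold change of 0.44 (SE 0.10, adjusted p = 0.00039, edgeR) against the fall of Itgb5. Its FPKM, 1.84 and 2.07 in WT and 2.55 and 2.68 in anti-Act1, remained far below the 84.4 and 81.1 of Itgb5 in WT. Itgb7, which pairs with α4, rose from 111 and 117 CPM in WT to 144 and 152 CPM in anti-Act1 (log2 fold change 0.37, SE 0.05, adjusted p = 3.21e-07, edgeR), while Itga4 fell.

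Of 20 integrin ligands listed beside Icam1, 13 were tested, of which 2 were higher (Mfge8 and Cd47) and 3 lower (Vcam1, Spp1 and Thbs1). This share was 38.5%, beside 20.7% of all genes tested, and the median log2 fold change was -0.03. Vcam1, the ligand of α4β1, moved opposite to Icam1, from 16.5 and 17.3 CPM in WT to 7.50 and 5.82 CPM in anti-Act1 (log2 fold change -1.34, SE 0.11, adjusted p = 3.94e-14, edgeR). Icam2, a second ligand of LFA-1, stood between 5.22 and 5.94 CPM in all 4 libraries, with a log2 fold change of 0.08 (adjusted p = 0.751, edgeR). Fn1, which encodes fibronectin, the ligand of α5β1, had 48.9 and 51.8 CPM in WT and 47.3 and 47.1 CPM in anti-Act1 (adjusted p = 0.322, edgeR).

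For the αv pairs, Mfge8, a bridging protein through which αv integrins take up apoptotic cells, rose from 735 and 733.5 CPM in WT to 1182 and 1302 CPM in anti-Act1, a log2 fold change of 0.76 (adjusted p = 1.92e-16, edgeR). Spp1, which encodes osteopontin, fell by 0.40 on the log2 scale (adjusted p = 1.66e-08) and Thbs1, which encodes thrombospondin-1, fell by 0.39 (adjusted p = 3.12e-08), both in edgeR. Cd47, which associates with αv integrins and binds thrombospondin, had a log2 fold change of 0.18 (adjusted p = 0.00563, edgeR), and its call was lost when either anti-Act1 library was left out (adjusted p = 0.0737 without replicate 1 and 0.0556 without replicate 2).

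Of 40 genes of integrin activation and adhesion, 38 were tested, of which 6 were higher and 11 lower. This share was 44.7%, beside 20.7% of all genes tested, and the median log2 fold change was -0.06. The count of 17 was 7 without anti-Act1 replicate 1 and 11 without its replicate 2. Tln1, which encodes talin-1, the protein that switches integrins on by binding the β tail, stood at 516 and 520 CPM in WT and 433 and 449 CPM in anti-Act1, a log2 fold change of -0.23 (adjusted p = 0.000406, edgeR). Fermt3, which encodes kindlin-3, the second activator of leukocyte integrins, had 265 and 257 CPM in WT and 232 and 257 CPM in anti-Act1 and did not pass the test (adjusted p = 0.227). Rassf5, whose product RAPL acts with the GTPase Rap1 on αLβ2, fell by 0.34 on the log2 scale (adjusted p = 4.27e-05). Rasgrp2, an activator of Rap1, had a log2 fold change of -0.37 (adjusted p = 0.036, edgeR), which became -0.16 (adjusted p = 0.577) without anti-Act1 replicate 1 and -0.31 (adjusted p = 0.149) without WT replicate 1.

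Among the called genes of this list with a mean of at least 1 CPM, the 3 largest rises were those of Bcar1, Src and Fgr, which act after integrin binding. Bcar1, which encodes the adhesion scaffold p130Cas, went from 3.61 and 3.31 CPM in WT to 10.7 and 10.9 CPM in anti-Act1, a log2 fold change of 1.64 (SE 0.13, adjusted p = 2.37e-14, edgeR). The kinase Src rose by 0.48 on the log2 scale (adjusted p = 4.17e-08), and the myeloid kinase Fgr rose by 0.36 (adjusted p = 0.00163), both in edgeR. Lyn, of the same kinase family, was among the 11 lower genes.

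**Figure D4:**
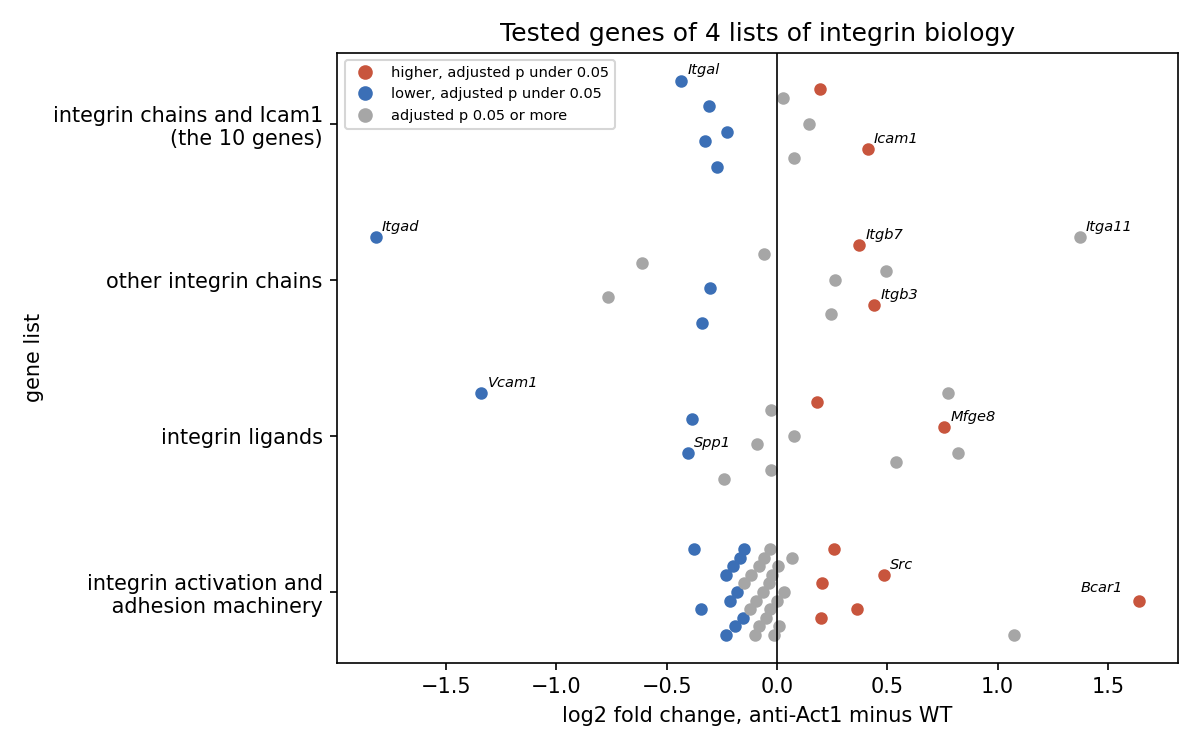
Log2 fold change, anti-Act1 minus WT, of every tested gene in the list of 10 and in the lists of other integrin chains, ligands and adhesion machinery, each point a gene (red higher, blue lower, grey not past the test). Each list holds called genes on both sides of 0, from Vcam1 at -1.34 and Itgad at -1.82 to Mfge8 at 0.76 and Bcar1 at 1.64. Itga11, at 1.37, had at most 11 counts in a library and was not called.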

How the data were processed

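RNA was sequenced from 4 macrophage libraries, prepared with a NEBNext Ultra kit and read as pairs. Per the study's methods alignment was by TopHat, and the submitters' processing notes name Bowtie 0.12.2, HTSeq 0.6.1 and the builds mm8 and mm10 without saying where each was used. The annotation and the strand setting of the counting are not given in the sources used here. The authors deposited raw counts per gene and, from the same counts, FPKM values scaled by gene length and by each column's total.

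Counts of 21878 genes (6383 at 0 in all libraries) were tested with edgeR 4.0.16 in R 4.3.3: TMM normalization, filterByExpr, which kept 12494 genes, a quasi-likelihood F test on condition alone, two-sided, and Benjamini-Hochberg adjustment over all genes tested, with calls at an adjusted p under 0.05. CPM use TMM-scaled totals. DESeq2 1.42.0 and limma 3.58.1 with log2(FPKM + 1) or log2(FPKM + 0.1) served as alternatives, beside other size factors, other filters, a replicate block and leaving out each library. The step was tested on simulated counts. The result of 1 macrophage marker is not reported here. The named genes were the 10, the 3 largest called rises and falls of each further list at a mean of at least 1 CPM, and always Itgb3, Itgb7, Vcam1, Icam2, Fn1, Spp1, Tln1 and Fermt3. Likeness was taken over tested genes outside the 10 with a mean of at least 10 CPM. Further genes named from a list (Lyn) or as a check of the labels (Ddx3y) were chosen after their values were seen. Shared windows are exact matches of 50 bases between transcripts of the reference annotation, whose release may differ from the one counted. The 10 genes and the lists were chosen with earlier results of these data known. Replicates differed beyond sampling noise (chi-square per gene 10.8 in WT and 7.45 in anti-Act1). Intervals cover the spread between libraries only, with the variance of each gene moderated over the genes tested.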

Additional observations from a re-analysis of the deposited data

How the results depend on the processing

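Of 130 values of the 10 genes under 13 alternatives, 118 kept their direction and side of the threshold, and so did 320 of 336 values of 26 further named genes. Without a filter on low values, in limma on log2(FPKM + 1), 1092 genes, 4 of the 10 genes, 3 other integrin chains and 7 genes of the adhesion machinery were called, and Itgax (-0.22, adjusted p = 0.101), Itga4 (-0.31, adjusted p = 0.109) and Itga5 (0.16, adjusted p = 0.121) lost their calls. Itga5 also lost its call with limma on filtered log2(FPKM + 1) (0.16, adjusted p = 0.0566) and log2(FPKM + 0.1) (0.17, adjusted p = 0.0571), and Itgax with DESeq2 (-0.23, adjusted p = 0.0508), which called 1979 genes and 6 of the 10. The cause was not tested.

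Leaving out 1 library at a time gave 1671 to 2543 genes called, 5 to 7 of the 10, 5 to 6 other chains, 4 to 5 ligands and 7 to 15 genes of the machinery. The log2 fold changes then ran from -0.35 to -0.27 for Itgam, -0.48 to -0.38 for Itgal, -0.27 to -0.18 for Itgax, -0.44 to -0.20 for Itga4, 0.15 to 0.25 for Itga5, 0.049 to 0.25 for Itgav, 0.02 to 0.14 for Itgb2, -0.31 to -0.23 for Itgb5 and 0.34 to 0.48 for Icam1. That of Itgb1 ran from -0.008 (without WT replicate 1, a change of sign) to 0.061. A group left with 1 library is assumed to vary like the other.

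With the replicate number as a block, 2406 genes and 7 of the 10 were called, with no change of call among the 10. The numbers are not shown to pair the samples: deviations of same-numbered libraries correlated at -0.03 over all genes tested and -0.109 over those of at least 10 CPM. A block with the numbers crossed, added after seeing the data, called 3104 genes and 8 of the 10, Itgav included (0.15, adjusted p = 0.0109). Library totals alone shifted the median of all genes by -0.03. Each group had 2 libraries, and the part that depth plays in these results was not tested.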
